A study of Mus musculus with 8 samples.

Results

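The 8 CHCHD genes measured here in differentiating fat cells were *Chchd1*, *Chchd2*, *Chchd3*, *Chchd4*, *Chchd5*, *Chchd6*, *Chchd7* and *Chchd10*. They were taken by name from the RNA-seq count tables of 2 mouse cell lines, one with 35949 named gene rows and one with 21828, and all 8 occurred in both. *Chchd10* was chosen by its measured counts, which rose steeply in the brown line and not in the white line, so its levels are described without a test. The other 7 are its family, and their changes were tested. The cells were brown adipocytes (BACs) at day 4 and 3T3-L1 adipocytes at day 6 of differentiation, each set against the same line at day 0, with 2 libraries in each of the 4 groups. BACs were brown preadipocytes from the interscapular brown fat of newborn mice, made immortal with the large T antigen of SV40. 3T3-L1 is a fibroblast line of mouse embryo origin that forms white-type adipocytes. Both lines are labelled as wild type, and the labels name the same differentiation protocol for every library, in which IBMX, indomethacin, dexamethasone, insulin and T3 were given until day 2 and insulin with T3 after that. Each line is 1 immortal line, and the study's methods state in general terms that culture work was repeated on distinct samples, but no label ties the 2 libraries of a group to separate cultures, so a p-value here covers only how far these samples spread, which could be technical. Levels were not tested between lines, since day and table differ along with the line. The test of the difference in change holds the same mix, so it cannot tell line, day and table apart.

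CHCHD proteins are small proteins encoded in the nucleus that fold into a pair of helices held together by disulfide bonds between cysteines, most often spaced as CX9C motifs. Most of them work in the intermembrane space of mitochondria, where the import receptor CHCHD4 oxidises them as they enter and so traps them. Some shape cristae, some help to assemble respiratory complexes, and some belong to the mitochondrial ribosome. Brown adipocytes are packed with mitochondria whose cristae are densely folded, and they burn fuel to make heat through uncoupling protein 1 (Ucp1).

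Libraries held 9045849 to 10160636 counts. Levels are given as CPM, the count of a gene scaled to an equal library total, on 1 TMM scale over the 8 libraries, with SD over n = 2 libraries. Changes are log2 changes ± SE with the Benjamini-Hochberg adjusted p of edgeR over all genes tested, called at 0.05, and all 8 members passed the filter on low counts. The adipocyte markers *Pparg*, *Cebpa*, *Fabp4*, *Adipoq*, *Plin1*, *Lpl*, *Cfd* and *Cidec* together came to 19537 to 20491 CPM in BACs at day 4, against 957 to 970 CPM at day 0, and to 43912 to 45571 CPM in 3T3-L1 cells at day 6, against 903 to 1024 CPM at day 0. The 10 brown markers were *Ucp1*, *Cidea*, *Ppargc1a*, *Cox7a1*, *Cox8b*, *Elovl3*, *Dio2*, *Prdm16*, *Ebf2* and *Otop1*. They came to 708 to 845 CPM in BACs at day 4, against 134 to 143 CPM at day 0, and to 104 to 108 CPM in 3T3-L1 cells at day 6, against 27.7 to 28.3 CPM at day 0. *Ebf2* averaged 127 CPM in BACs at day 0 and had 1489 and 1373 counts there, against 1237 and 1223 at day 4. All others had more counts at day 4 of BACs than at day 0, but *Dio2* had only 5 and 3 and *Otop1* 15 and 5. The 2 BAC libraries of day 4 stood further apart than other pairs, with a chi-square per gene of 5.17, against 1.87 to 2.63 in the other groups, and with 427 and 173 counts of *Ucp1*. In bulk samples, fewer cells of a type and less RNA per cell cannot be told apart.

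*Chchd10* was high only in differentiated BACs. CHCHD10 is a protein of the intermembrane space that pairs with CHCHD2, and changes in the human gene cause motor neuron disease, dementia and muscle disease. The gene had 7929 and 7311 counts in the BAC libraries of day 4, against 17 and 10 counts at day 0. In 3T3-L1 cells it had 17 and 18 counts at day 6, against 26 and 15 counts at day 0. Only the 2 libraries of differentiated BACs were high, and the other 6 lay between 10 and 26 counts. On the common scale *Chchd10* averaged 882.9 ± 43.5 CPM in BACs at day 4 and 1.20 ± 0.43 CPM at day 0, and 2.13 ± 0.09 CPM in 3T3-L1 cells at day 6 and 2.03 ± 0.77 CPM at day 0. The BAC level at day 4 was 737 times that at day 0, and single pairs of libraries gave ratios of 567 to 1026. In 3T3-L1 cells the same ratio was 1.05, with pairs of libraries from 0.799 to 1.47, and the day 6 and day 0 libraries overlapped. The fitted log2 change was 9.54 in BACs and 0.06 in 3T3-L1 cells. Of the 14028 genes tested in BACs, 37 had a larger fitted change. These values chose the gene and carry no test.

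**Figure D1:**
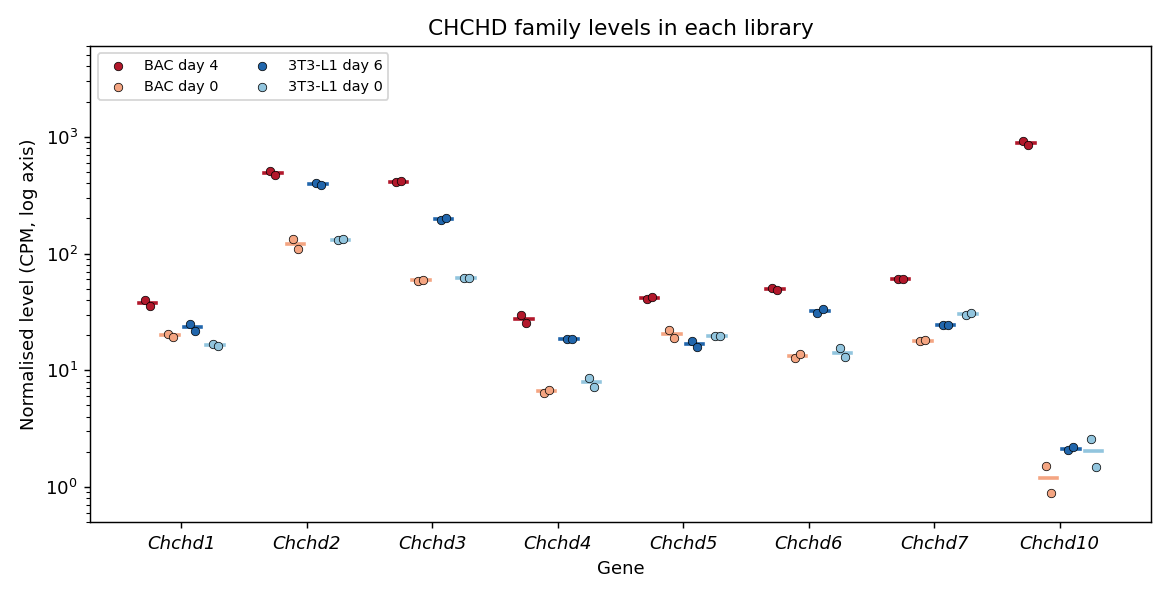
Level of each CHCHD gene in each of the 8 libraries, in CPM on a log axis, with a short line at the mean of each group of 2 libraries. *Chchd10* lies at 913.7 and 852.2 CPM in BACs at day 4 and between 0.891 and 2.58 CPM in the 6 other libraries, while the other genes differ far less between groups.

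CHCHD10 is also known from skeletal and heart muscle, so muscle markers were read beside it. Of 14 skeletal muscle markers, 9 had no count in either BAC library of day 4, among them *Myod1*, *Myog*, *Myh1*, *Myh2*, *Myh4* and *Myh7*. The list summed to 291 to 326 CPM there, against 8.29 to 10.4 CPM at day 0, nearly all of it from *Mb* with 2516 and 2787 counts, against 7 and 1 counts at day 0. *Mb* encodes myoglobin, which brown fat makes too. The 5 heart markers summed to 1.05 to 1.15 CPM in BACs at day 4, with *Myh6*, *Actc1*, *Tnnt2* and *Nkx2-5* at 0, against 2.14 to 2.30 CPM at day 0. In 3T3-L1 cells the skeletal muscle list came to 29.1 to 29.6 CPM at day 6, against 14.3 to 16.2 CPM at day 0. *Mb* was the largest part there at day 6, with 169 and 161 counts, against 1 and 4 counts at day 0. The largest part at day 0 was *Actn3*, with 123 and 133 counts, against 13 and 18 at day 6. Immune markers summed to 6.06 to 7.49 CPM in BACs at day 4, against 4.77 to 4.81 CPM at day 0, with *Ptprc*, *Adgre1* and *Cd3e* at 0 in all 8 libraries.

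*Chchd2* encodes the closest relative of CHCHD10 and its binding partner, a protein that supports respiration and that in human cells also enters the nucleus to raise COX4I2. It was abundant in every library. It had 510.2 and 473.6 CPM in BACs at day 4, against 133.1 and 109.6 CPM at day 0, and 403.5 and 384.9 CPM in 3T3-L1 cells at day 6, against 129.8 and 132.0 CPM at day 0. Differentiated cells of either line lay clear of day 0, and the day 0 libraries of the 2 lines overlapped. The gene rose by 2.05 ± 0.10 in BACs (edgeR adjusted p = 4.47e-11) and by 1.59 ± 0.05 in 3T3-L1 cells (2.12e-16). The rise was 0.43 ± 0.11 larger on the log2 scale in BACs (edgeR adjusted p = 0.00140). *Cox4i2*, the mouse counterpart of COX4I2, had between 0 and 5 counts in each library and was too low to test.

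Per length, *Chchd10* was the most abundant of the 8 genes in BACs at day 4 and the least abundant in the other 3 groups. Counts were divided by the summed exon length of each gene and scaled to an equal total (TPM). *Chchd10* stood at 1850 and 1799 TPM in BACs at day 4, where it ranked 58 in both libraries among genes with a length, and it was 2.58 and 2.59 times *Chchd2*. At day 0 of BACs the order was the other way round, with *Chchd2* 61.5 and 85.4 times *Chchd10*. In 3T3-L1 cells *Chchd2* was 136 and 122 times *Chchd10* at day 6 and 35.0 and 61.6 times at day 0. *Chchd10* made up 55.0% and 54.3% of the summed TPM of the 8 genes in BACs at day 4, against 0.759% and 0.502% at day 0. Its share was 0.427% and 0.470% in 3T3-L1 cells at day 6, against 1.31% and 0.764% at day 0. With the longest transcript as the length, the share in BACs at day 4 was 48.1% and 47.2%. The 7 other genes alone summed to 1514 and 1512 TPM in BACs at day 4, against 540.9 and 489.8 TPM at day 0, and to 1068 and 1039 TPM in 3T3-L1 cells at day 6, against 523 and 534 TPM at day 0.

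**Figure D2:**
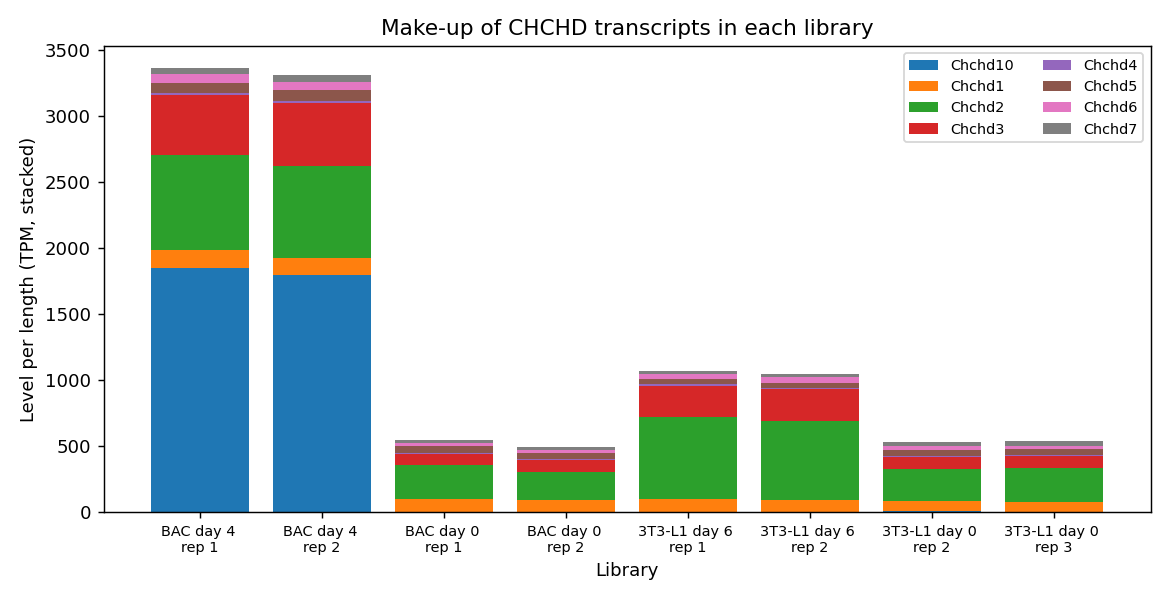
Level per length (TPM) of the 8 CHCHD genes, stacked for each library. The bars reach 3364 and 3310 TPM in BACs at day 4, where *Chchd10* fills 55.0% and 54.3%, and stay at or under 1072 TPM in the 6 other libraries, where *Chchd2* is the largest piece.

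Among the 7 genes that could be tested, all 7 rose in BACs, where 39.1% of all 14028 genes tested were called higher and 39.4% lower. In 3T3-L1 cells 5 rose, *Chchd7* fell and *Chchd5* was not called, where 39.8% of all 11902 genes tested were called higher and 39.6% lower. The median log2 change of the 7 genes was 1.94 in BACs and 1.18 in 3T3-L1 cells, against 0.01 and 0.00 over all genes tested. The change was larger in BACs for all 7 in the test of the difference itself, where 25.3% of the 12863 genes tested were called larger in BACs and 33.7% smaller, and the median over all of them was -0.11, against 0.83 over the 7. That of *Chchd1* was the closest to the limit, and its call was lost in 6 of 13 alternatives, which left the 6 other members. Markers of preadipocytes or fibroblasts moved with this difference. The 8 of them together came to 716 to 724 CPM in BACs at day 4, against 25498 to 26452 CPM at day 0, and to 11062 to 11504 CPM in 3T3-L1 cells at day 6, against 47127 to 48427 CPM at day 0. Their part in the difference was not tested. Day and table also differ along with the line in this test, so line, day and table cannot be told apart.

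**Figure D3:**
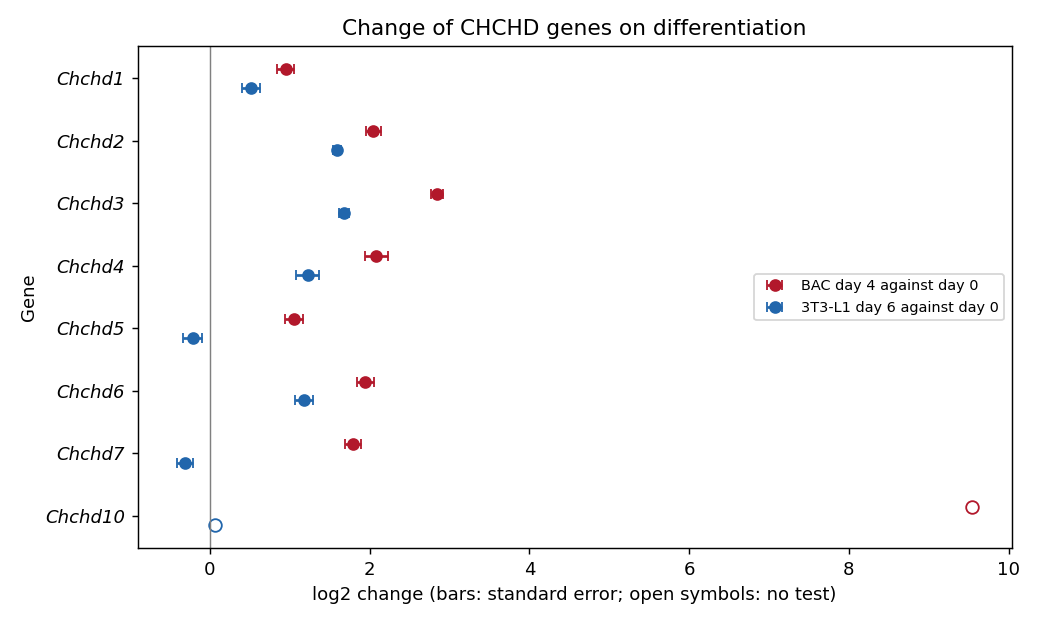
Log2 change on differentiation of each CHCHD gene in BACs and in 3T3-L1 cells, with the SE as bars; *Chchd10* has open symbols and no error because its change was not tested. In BACs the 7 tested genes lie between 0.95 and 2.84 and in 3T3-L1 cells between -0.31 and 1.68, and each lies further to the right in BACs.

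*Chchd3* and *Chchd6* encode MIC19 and MIC25, subunits of MICOS, the complex that holds cristae junctions in place. *Chchd3* had 411.7 and 414.8 CPM in BACs at day 4, against 58.1 and 59.6 CPM at day 0, and 195.6 and 200.4 CPM in 3T3-L1 cells at day 6, against 61.6 and 62.1 CPM at day 0. The lines thus started at nearly one level, and the BAC libraries ended above the 3T3-L1 libraries. It rose by 2.84 ± 0.08 in BACs (edgeR adjusted p = 1.54e-13), the most of the 7, and by 1.68 ± 0.06 in 3T3-L1 cells (4.06e-16), a difference of 1.14 ± 0.10 (1.88e-10). *Chchd6* had 50.9 and 49.2 CPM in BACs at day 4, against 12.7 and 13.8 CPM at day 0, and 30.9 and 33.3 CPM in 3T3-L1 cells at day 6, against 15.5 and 12.9 CPM at day 0. Its day 0 libraries overlapped between the lines, and its differentiated libraries did not. It rose by 1.94 ± 0.11 in BACs (edgeR adjusted p = 3.26e-10) and by 1.18 ± 0.11 in 3T3-L1 cells (9.26e-09), a difference of 0.74 ± 0.16 (0.000404). Per length, *Chchd3* was 7.04 and 7.34 times *Chchd6* in BACs at day 4, against 3.97 and 3.76 times at day 0, and 5.51 and 5.25 times in 3T3-L1 cells at day 6, against 3.47 and 4.19 times at day 0. With the longest transcript as the length, these ratios were 11.2 and 11.6 in BACs at day 4, against 6.30 and 5.96 at day 0, so their size rests on the transcript assumed.

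The rest of MICOS and its outer membrane partners moved the same way in BACs. All 10 other listed genes of that bridge that were tested in BACs rose, with a median of 1.78. Over all genes tested in BACs, 39.1% were called higher. *Apoo*, which encodes MIC26, rose the most by 2.98 ± 0.12 in BACs (edgeR adjusted p = 7.18e-12) and rose by 2.21 ± 0.12 in 3T3-L1 cells (6.33e-13). In 3T3-L1 cells 7 of 9 rose, 2 fell and the median was 1.04, where 39.8% of all genes tested were called higher and 39.6% lower. The largest of those falls was that of *Mtx3*, a metaxin of the outer membrane, at -0.28, which was not called by DESeq2 (adjusted p = 0.0593) or by edgeR without 3T3-L1 day 6 replicate 2 (0.0835). *Immt*, which encodes the core subunit MIC60, rose by 2.40 ± 0.08 in BACs (edgeR adjusted p = 1.18e-12) and by 2.30 ± 0.05 in 3T3-L1 cells (5.23e-19). For *Immt* the difference between the lines was 0.08 ± 0.09 (edgeR adjusted p = 0.503) and was not called, while for *Minos1*, which encodes MIC10, it was 1.27 ± 0.11 (2.57e-10). Of the 9 other genes tested for the difference, 7 changed more in BACs and none was called less. The shares over all genes tested apply to the lists that follow as well.

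*Chchd4* encodes the import receptor MIA40, which oxidises incoming CHCHD proteins. It was the least abundant of the 7 per length. It had 29.5 and 25.5 CPM in BACs at day 4, against 6.45 and 6.77 CPM at day 0, and 18.4 CPM in both 3T3-L1 libraries of day 6, against 8.62 and 7.15 CPM at day 0. No neighbouring groups overlapped. It rose by 2.08 ± 0.14 in BACs (edgeR adjusted p = 4.60e-09) and by 1.22 ± 0.14 in 3T3-L1 cells (1.59e-07), a difference of 0.83 ± 0.21 (0.00151). Its partners in the import relay were read beside it. *Gfer*, the oxidase that recharges MIA40, rose by 1.07 ± 0.09 in BACs (edgeR adjusted p = 3.30e-08) and by 1.19 ± 0.11 in 3T3-L1 cells (5.81e-09). *Aifm1*, whose protein carries MIA40 on the inner membrane, rose by 2.27 ± 0.09 in BACs (edgeR adjusted p = 4.26e-12) and by 2.23 ± 0.06 in 3T3-L1 cells (7.57e-18). The difference between the lines was not called for either, at -0.15 ± 0.14 for *Gfer* (edgeR adjusted p = 0.371) and 0.01 ± 0.11 for *Aifm1* (0.971).

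Proteins that MIA40 imports were read from 2 further lists. Of 15 twin CX9C genes without a CHCHD name, such as the copper chaperone *Cox17*, 15 rose in BACs with a median of 1.70, and 12 of 14 tested rose in 3T3-L1 cells with a median of 1.05 and none fell. *Cox17* rose the most in BACs, by 2.89 ± 0.11 (edgeR adjusted p = 6.79e-12), and *Ndufs5*, a subunit of complex I, rose the most in 3T3-L1 cells, by 1.80. All 6 small TIM chaperones tested rose in both lines, with medians of 2.08 in BACs and 1.28 in 3T3-L1 cells, led by *Timm10* at 3.03 in BACs and 1.60 in 3T3-L1 cells. For the difference, 9 of the 15 twin CX9C genes and 6 of the 6 small TIM genes changed more in BACs, and 1 of the 15 changed less. Over all genes tested for the difference, 25.3% were called larger in BACs and 33.7% smaller.

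*Chchd1* encodes a subunit of the small part of the mitochondrial ribosome, and it moved the least of the 7 in BACs. It had 39.6 and 35.7 CPM in BACs at day 4, against 20.5 and 19.3 CPM at day 0, and 25.1 and 21.9 CPM in 3T3-L1 cells at day 6, against 16.8 and 16.2 CPM at day 0. It rose by 0.95 ± 0.11 in BACs (edgeR adjusted p = 1.42e-06) and by 0.51 ± 0.12 in 3T3-L1 cells (0.000437). The difference of 0.41 ± 0.16 (edgeR adjusted p = 0.0332) was lost in 6 of 13 alternatives, and the adjusted p over the 13 ran between 0.00695 and 0.153. The call was lost with no filter (edgeR adjusted p = 0.0522), with DESeq2 (adjusted p = 0.108) and in edgeR without BAC day 4 replicate 1 (0.0986), 3T3-L1 day 0 replicate 2 (0.104), 3T3-L1 day 0 replicate 3 (0.0566) or 3T3-L1 day 6 replicate 2 (0.153). Of 32 other genes of the small subunit, 31 rose in BACs with a median of 1.51, and in 3T3-L1 cells 30 rose and 1 fell with a median of 1.00. *Mrps35* rose the most in BACs, by 2.32, and *Mrps22* rose the most in 3T3-L1 cells, by 1.69, while *Mrps25* was the gene that fell there, at -0.14, a call that was lost in 6 of 10 alternatives, the fits without any 1 library among them. An antisense transcript, 6230400D17Rik, starts 22 bases from *Chchd1* and shares exon sequence with it on the other strand. This transcript had 139 and 117 counts in BACs at day 4, against 83 and 68 counts at day 0, and was not among the genes counted in 3T3-L1 cells. The sources used here do not give whether strand was used in counting, and reads of the shared stretch cannot be told apart.

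*Chchd5* and *Chchd7* encode small CX9C proteins of the intermembrane space whose roles are little known, and they had the largest differences between the lines among the 7. *Chchd7* had 60.8 and 61.0 CPM in BACs at day 4, against 17.7 and 18.3 CPM at day 0, and 24.3 and 24.4 CPM in 3T3-L1 cells at day 6, against 29.7 and 30.9 CPM at day 0. The order of the groups was turned round between the lines, with no overlap. It rose by 1.79 ± 0.10 in BACs (edgeR adjusted p = 2.69e-10) and fell by 0.31 on the log2 scale in 3T3-L1 cells (SE 0.10, 0.00578). That fall was not called by DESeq2 (adjusted p = 0.119) or by edgeR without 3T3-L1 day 6 replicate 1 (0.0501), and over the 10 alternatives the adjusted p ran between 3.09e-06 and 0.119. The difference of 2.08 ± 0.14 (edgeR adjusted p = 1.80e-12) was called under all 13 alternatives. *Chchd5* had 40.9 and 42.4 CPM in BACs at day 4, against 22.2 and 18.8 CPM at day 0, and 17.8 and 16.0 CPM in 3T3-L1 cells at day 6, against 19.6 and 19.7 CPM at day 0. The BAC groups lay far apart, and the day 6 libraries of 3T3-L1 lay just under those of day 0. It rose by 1.05 ± 0.11 in BACs (edgeR adjusted p = 5.26e-07). In 3T3-L1 cells its change was -0.22 ± 0.12 (0.0963), which was not called, but was called lower with upper-quartile factors (-0.38, edgeR adjusted p = 0.00541) and with library size alone (-0.51, 0.000340), with adjusted p between 0.000340 and 0.408 over 10 alternatives. The difference between the lines was 1.24 ± 0.16 (4.12e-07).

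The respiratory chain gives a scale for these changes. Its list shares *Cox6b1*, *Ndufa8*, *Ndufb7*, *Ndufs5* and *Uqcrh* with that of the twin CX9C genes, so the 2 lists are not separate. All 77 listed nuclear genes of the chain and ATP synthase rose in BACs with a median of 2.56, and in 3T3-L1 cells 75 rose and 1, *Cox7a2l* at -0.30, fell, with a median of 1.59. *Cycs*, which encodes cytochrome c, rose the most in both lines, by 4.61 in BACs and by 3.99 in 3T3-L1 cells. Of the 7 CHCHD genes, *Chchd3* alone lay above the respiratory median in both lines, by 0.28 in BACs and by 0.09 in 3T3-L1 cells. *Chchd1* and *Chchd5* changed less than all but 1 of the 77 in BACs, and *Chchd7* in 3T3-L1 cells lay under all 77. In the difference between the lines the respiratory median was 1.03, and 75 of the 77 lay below *Chchd7*. These positions are descriptions.

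**Figure D4:**
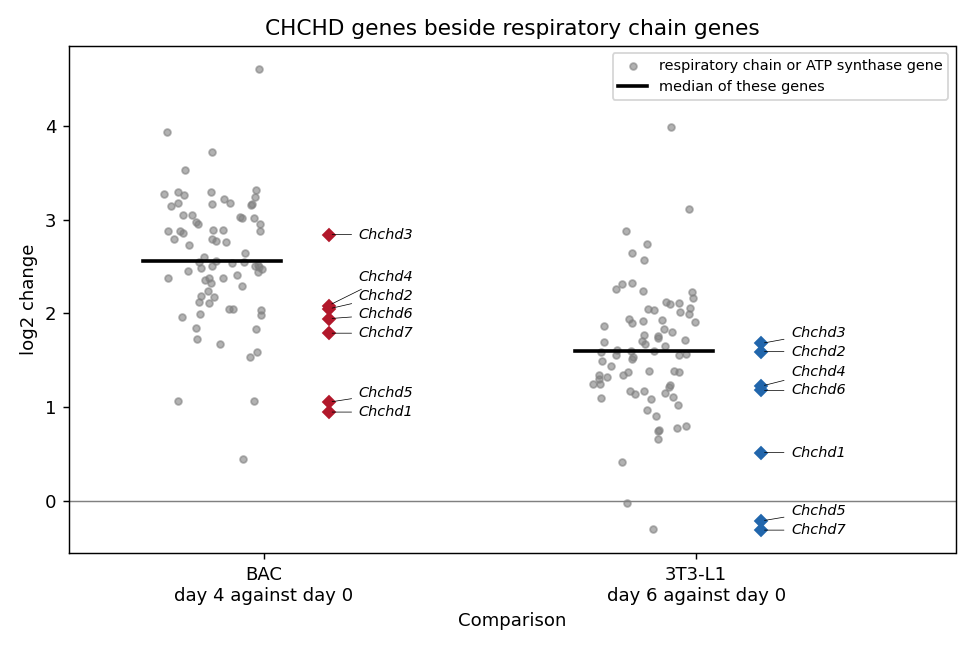
Log2 change of 77 nuclear genes for respiratory chain complexes and ATP synthase (grey points, black line at the median) beside the 7 tested CHCHD genes (diamonds) in BACs and in 3T3-L1 cells. *Chchd3* lies just above the medians of 2.56 and 1.59, *Chchd1* and *Chchd5* lie near the bottom in BACs, and *Chchd7* lies below every grey point in 3T3-L1 cells.

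CHCHD2 and CHCHD10 are known to act on the inner membrane protease OMA1, which cuts OPA1, and on the stress response that follows. *Oma1* rose in 3T3-L1 cells and was not called in BACs. It had 94 and 76 counts in BACs at day 4, against 103 and 114 counts at day 0, and 357 and 342 counts in 3T3-L1 cells at day 6, against 104 and 131 counts at day 0. Only differentiated 3T3-L1 cells were high. Its change was 0.06 ± 0.17 in BACs (edgeR adjusted p = 0.757), not called and below 0 under 3 of 12 alternatives, and 1.87 ± 0.11 in 3T3-L1 cells (5.17e-12), and the difference was -1.83 ± 0.21 (3.53e-08). *Opa1*, the fusion protein that OMA1 cuts, rose by 1.52 ± 0.08 in BACs (edgeR adjusted p = 1.84e-10) and by 1.36 ± 0.05 in 3T3-L1 cells (3.02e-15). Of the 7 tested genes of this group, 5 rose in BACs with a median of 1.52 and 7 in 3T3-L1 cells with a median of 0.88. For the difference, 3 changed more in BACs and 2, *Oma1* and *Yme1l1*, changed less. *Yme1l1* was also not called in BACs (0.13 ± 0.08, edgeR adjusted p = 0.140). It rose by 0.75 ± 0.05 in 3T3-L1 cells (8.58e-11), a difference of -0.65 ± 0.09 (1.60e-06). *C1qbp*, a matrix protein, rose the most in BACs, by 2.16, and least in 3T3-L1 cells, by 0.72. The 12 genes listed for the integrated stress response were *Ddit3*, *Atf4*, *Atf5*, *Fgf21*, *Gdf15*, *Trib3*, *Asns*, *Chac1*, *Mthfd2*, *Psat1*, *Phgdh* and *Sesn2*. Of these, 10 rose in BACs with a median of 1.63, and 8 of 11 tested rose in 3T3-L1 cells with a median of 0.59. Whether these changes began in mitochondria was not tested. *Trib3*, a target of ATF4, rose the most in BACs, by 4.06 ± 0.10 (edgeR adjusted p = 4.52e-14), and by 1.14 ± 0.07 in 3T3-L1 cells (2.31e-12), a difference of 2.90 ± 0.12 (2.01e-16). *Psat1*, an enzyme of serine synthesis, rose the most in 3T3-L1 cells, by 1.25.

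The 5 genes whose profile over the 8 libraries lay closest to *Chchd10*, among 12736 candidates, were *Pbld1*, *Elovl3*, *Plin5*, *Ucp1* and *Cecr2*. Closeness was the Euclidean distance between log2 CPM values centred on each gene's mean, with a prior count of 2 added. Candidates were genes counted in both lines that passed the filter over the 8 libraries, with members and predicted genes left out. The 5 had at most 6 counts in any library outside BACs at day 4, so they passed through that group alone. Distances there rest on the prior count. The profile is the one that chose *Chchd10*, so the ranking is a description. *Pbld1* was closest, at a distance of 1.79, with 535 and 545 counts in BACs at day 4, against 0 and 1 at day 0, and with 0 and 0 in 3T3-L1 cells at day 6, against 1 and 1 at day 0. *Elovl3*, an elongase of brown fat, lay at 2.30 with 433 and 322 counts in BACs at day 4, against 2 and 0 at day 0, and 2 and 1 in 3T3-L1 cells at day 6, against 2 and 0 at day 0. *Plin5*, a lipid droplet protein that tethers mitochondria, lay at 2.39, and *Ucp1* lay at 2.67. *Cecr2*, a chromatin protein, lay at 2.82. Pearson's r with *Chchd10* over the 8 libraries ran from 0.985 to 0.996 for these 5, and since 2 libraries carry the whole pattern, it says little more than that the same 2 were high. Ranked by r instead, 1 of the 5, *Elovl3*, stayed among the nearest 5.

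*Chchd10* lies on chromosome 10 at 75933130 to 75937750 on the plus strand of GRCm38.p6. The other members lie on chromosomes 2 (*Chchd5*), 4 (*Chchd7*), 5 (*Chchd2*), 6 (*Chchd3*, *Chchd4* and *Chchd6*) and 14 (*Chchd1*). On the side before its start the 3 nearest genes were *Mmp11*, *Smarcb1* and *Derl3*. *Mmp11* and *Smarcb1* did not rise with it, and *Derl3* was too low to test. *Mmp11* ends 628 bases away and had 313 and 400 counts in BACs at day 4, against 594 and 617 at day 0. Its fitted log2 change in BACs was -0.35. *Smarcb1* had 1081 and 1022 counts in BACs at day 4, against 1283 and 1258 at day 0, and *Derl3* had 8 and 3, against 1 and 4. With library size and TMM taken into account, the fitted log2 change of *Smarcb1* was 0.14 and not called (edgeR adjusted p = 0.100). On the far side the next gene, *Gm867*, is annotated on the other strand at 75937719 to 75940672, so it overlaps the end of *Chchd10*. *Gm867* had 1010 and 781 counts in BACs at day 4, against 2 and 1 counts at day 0, and was not a row of the 3T3-L1 table. Its counts were thus high in the same 2 libraries as those of *Chchd10*. Without strand, reads of the shared stretch cannot be told apart between *Chchd10* and *Gm867*. *Vpreb3*, the next gene on, had 11 and 7 counts in BACs at day 4, against 0 and 0 at day 0, and *Gm16221*, a pseudogene, had no row. Some annotated transcripts of *Mmp11* also share exon sequence with *Chchd10* on the other strand.

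The sequence before the start of *Chchd10* is shown because it is the gene that parts from its family, with those of *Chchd3* and *Chchd5* beside it because they were the members whose promoters held a motif searched. Each is the 250 bases before the transcript start of the RefSeq promoter table (GRCm38.p6), 5′ to 3′ on the strand of the gene, at chr10:75932880-75933129 (plus) for *Chchd10*, chr6:33060261-33060510 (minus) for *Chchd3* and chr2:129129450-129129699 (plus) for *Chchd5*, with each CpG in capitals. For *Chchd3* the widest RefSeq span of the gene begins a little further upstream, at 33060273, inside this window.
Chchd10: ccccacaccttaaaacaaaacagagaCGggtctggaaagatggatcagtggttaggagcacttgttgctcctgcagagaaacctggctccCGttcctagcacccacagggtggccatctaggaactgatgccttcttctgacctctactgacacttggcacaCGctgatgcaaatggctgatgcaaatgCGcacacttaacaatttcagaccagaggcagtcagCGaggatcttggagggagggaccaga
Chchd3: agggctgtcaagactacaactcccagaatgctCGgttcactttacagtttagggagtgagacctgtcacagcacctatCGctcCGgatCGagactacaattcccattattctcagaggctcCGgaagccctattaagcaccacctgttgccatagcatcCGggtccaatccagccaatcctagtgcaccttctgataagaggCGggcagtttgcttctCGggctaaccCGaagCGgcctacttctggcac
Chchd5: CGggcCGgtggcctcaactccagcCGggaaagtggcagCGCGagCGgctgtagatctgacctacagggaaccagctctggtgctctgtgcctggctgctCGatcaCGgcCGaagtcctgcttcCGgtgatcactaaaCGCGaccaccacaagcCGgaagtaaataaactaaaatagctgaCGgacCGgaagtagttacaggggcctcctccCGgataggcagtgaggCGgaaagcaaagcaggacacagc

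*Chchd10* held 5 CpGs in this window, with an observed to expected ratio of 0.291, against a median of 6 CpGs and 0.374 over 32851 promoters of the same length. Of the 8 members, 6 matched a promoter of the RefSeq table by symbol (not *Chchd2* or *Chchd7*). The 5 others that matched held more, namely 8 for *Chchd6*, 10 for *Chchd3*, 17 for *Chchd5*, 22 for *Chchd4* and 28 for *Chchd1*. CpG content was read after the sequences had been seen. Motifs were searched on both strands of the 300 bases that reach 50 bases past the start. The ETS motif CCGGAAG occurred 3 times for *Chchd5* and once for *Chchd3*, and 8.86% of all promoters held it. The EBF motif TCCCNNGGG, the ERR motif TCAAGGTCA, the PPAR-RXR core GTCANAGGT and the NRF1 motif GCGCATGCG occurred in none of the 6 members, and 6.56%, 0.423%, 1.14% and 1.75% of all promoters held them. For *Chchd10* the search thus found none of the letters in this window, which says nothing of binding.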

How the data were processed

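RNA was sequenced from 8 libraries, 2 in each of 4 groups. The authors deposited raw counts per gene, not normalised and not pooled, with each line in a file of its own. For alignment and counting, STAR and HTSeq appear in the methods of the study, with DESeq2 for testing. The submitters' processing notes give other tools, Bowtie2 and RSEM 1.3.1 with DESeq2 1.4.5, and the build mm10. Use of strand in counting is not stated in these sources. For BACs, 27 row names had become dates, holding at most 0.316% of a library's counts, and were left out.

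The test was the quasi-likelihood F test (two-sided) in edgeR 4.0.16 (R 4.3.3), with TMM, filterByExpr at a minimum count of 10, and an adjusted p (Benjamini-Hochberg) of 0.05. The lines were fitted alone, 4 libraries each, and the difference in change over 8 libraries with the 21828 shared symbols. TPM was computed from summed exon lengths in GENCODE for genes with a length, which held at least 95.5% of a library's counts. The chi-square between libraries used genes with at least 20 summed counts. The code was tested on simulated data.

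Members and gene lists were chosen with earlier results of these data known. From each list the largest rise and fall past the test in each line were named, with genes that form a complex with a member. Alternatives were DESeq2 1.42.0, its size factors, upper-quartile factors, library size alone, no filter, the replicate block, the date-named rows kept, 1 fit over 8 libraries, the longest transcript, Pearson's r, and leaving out each library.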

Additional observations from a re-analysis of the deposited data

Results flagged for a closer look

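The change on differentiation differed between the lines in the edgeR test of the difference, BAC minus 3T3-L1 on the log2 scale, for *Chchd1* (0.41), *Chchd2* (0.43), *Chchd3* (1.14), *Chchd4* (0.83), *Chchd5* (1.24), *Chchd6* (0.74) and *Chchd7* (2.08). The difference of *Chchd1* lost its call in 6 of 13 alternatives, with an adjusted p of up to 0.153. Among the other genes for which a difference is given, it differed for *Minos1* (1.27), *Oma1* (-1.83), *Yme1l1* (-0.65) and *Trib3* (2.90). Groups of 2 libraries are too small for a check of single outlying libraries.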

How the results depend on the processing

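In BACs each of the 7 tested members was called higher under all 12 alternatives. For the difference 6 of the 7, not *Chchd1*, stayed called in 6 of 13 alternatives and all 7 in the others. In 3T3-L1 cells the number of members called lower, 1 as reported, was 2 with upper-quartile factors or library size alone and 0 with DESeq2, and it ran between 0 and 1 when single libraries were left out. The log2 change of *Chchd10* ran between 9.19 and 9.94 in BACs, between -0.28 and 0.51 in 3T3-L1 cells, and between 8.99 and 10.02 for the difference. For *Oma1* in BACs the change, not called, was -0.20 with library size alone and ran between -0.095 and 0.21 without single libraries. For the difference, also not called, *Gfer* ran between -0.21 and 0.003 and *Aifm1* between -0.061 and 0.23 without single libraries. *Chchd1* in 3T3-L1 cells was not called with library size alone (0.22, edgeR adjusted p = 0.0781, with a lowest value of 0.000451 over its 10 alternatives).

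Library size alone moved the median of all genes tested to -0.26 in BACs and -0.29 in 3T3-L1 cells, with 4298 genes higher and 6795 lower in BACs (5488 and 5526 as reported) and 3424 and 6306 in 3T3-L1 cells (4736 and 4717 as reported). Upper-quartile factors moved that median to -0.16 in 3T3-L1 cells and to 0.003 for the difference (-0.11 as reported). In BACs it moved to -0.145 with no filter and to -0.151 with DESeq2 (0.008 as reported). For the difference it was 0.038 without BAC day 0 replicate 1 and 0.037 without BAC day 0 replicate 2. With the replicate block 5528 genes were higher and 5571 lower in BACs, and all 7 members were called higher. Same-numbered BAC libraries did not deviate together (r = 0.0097 across 14028 genes and 0.0879 across the 6261 more abundant of them, genes not being independent replicates). For 3T3-L1 and for the difference between the lines, no paired analysis was possible because the 3T3-L1 groups share only 1 replicate number.

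With 2 libraries a group, precision is limited, and *Chchd10* outside differentiated BACs rests on 10 to 26 counts a library.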

Other observations

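In the list around CHCHD2, *Ghitm*, whose inner membrane protein binds CHCHD2, rose the most, by 3.04 in BACs and by 2.20 in 3T3-L1 cells. *Rbpj*, the factor that works with CHCHD2 in the nucleus of human cells, fell in both lines, with log2 changes of -1.21 in BACs and -1.53 in 3T3-L1 cells.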
